A study of Homo sapiens with 12 samples.

Results

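Glutamine tRNAs with the CTG or TTG anticodon made up 6 of the 29 tRNAs, and 9 of the 44 adenosines, in a table of candidate N1-methyladenosine (m1A) sites from DLD1 cells, a human colorectal cancer line. The members were chosen by isotype, and comprised 3 CTG tRNAs with 5 sites and 3 TTG tRNAs with 4 sites. OE-WT cells carried lentiviral TRMT6 and TRMT61A, and CTRL cells carried an empty lentiviral vector. Each of these 2 conditions was grown as 2 cultures, numbered as replicates, and each culture gave an IP library, a dma.IP library and an Input library, 12 libraries in all. Input is the small RNA before enrichment, IP is the methylation-antibody pulldown, and dma.IP is the pulldown that the table heads as demethylase-treated. No other genotype, drug or time point was part of these libraries, and the levels of TRMT6 and TRMT61A were not analysed here.

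Glutamine tRNAs carry glutamine to the ribosome. The CTG anticodon pairs with the codon CAG and the TTG anticodon with the codon CAA. In nearly all cytosolic tRNAs the T loop holds a conserved adenosine, A58, that the TRMT6/TRMT61A complex can methylate. TRMT61A holds the catalytic site and TRMT6 helps to bind the tRNA. A methyl group at N1 blocks base pairing, so reverse transcriptase stops there or inserts a wrong base, and the share of mismatched reads over an adenosine serves as a readout of m1A.

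The sequences of the 6 tRNAs are shown because they differ so little that their reads can be hard to assign. They are given 5′ to 3′ as DNA, with the listed adenosines in capitals.
tRNA-Gln-CTG-1-4: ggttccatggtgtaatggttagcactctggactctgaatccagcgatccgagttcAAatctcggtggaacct
tRNA-Gln-CTG-4-1: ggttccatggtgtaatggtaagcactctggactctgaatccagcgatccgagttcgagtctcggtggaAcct
tRNA-Gln-CTG-5-1: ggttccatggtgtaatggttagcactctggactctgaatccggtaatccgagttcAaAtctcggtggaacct
tRNA-Gln-TTG-1-1: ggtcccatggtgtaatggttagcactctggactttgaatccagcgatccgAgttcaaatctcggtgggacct
tRNA-Gln-TTG-2-1: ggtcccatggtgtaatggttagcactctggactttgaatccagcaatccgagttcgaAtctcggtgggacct
tRNA-Gln-TTG-3-3: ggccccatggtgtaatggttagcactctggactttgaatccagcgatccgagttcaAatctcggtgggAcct
Each is 72 nt long, and A58 of the standard numbering is base 57 counted from the 5′ end. The 15 pairs differed at 1 to 7 bases, and 10 of the 72 positions varied. Bases 4, 34 and 68 split the tRNAs by anticodon, base 34 being the first base of the anticodon itself. The closest pair, tRNA-Gln-TTG-1-1 and tRNA-Gln-TTG-3-3, differed only by T3C, with tRNA-Gln-TTG-1-1 as the reference and positions counted from the 5′ end. A read that does not reach base 3 cannot tell these 2 tRNAs apart.

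All 6 sequences matched hg38 at the listed positions. The gene of tRNA-Gln-CTG-1-4 lies at chr15:65869062-65869133 on the minus strand, in an intron of RAB11A and antisense to it. That of tRNA-Gln-CTG-4-1 lies at chr1:148265108-148265179 (minus strand), outside any GENCODE gene. That of tRNA-Gln-CTG-5-1 lies at chr6:27295433-27295504 (plus strand), in an intron of POM121L2, which runs the other way. The gene of tRNA-Gln-TTG-1-1 lies at chr17:49192528-49192599 (plus strand), outside any GENCODE gene. The gene of tRNA-Gln-TTG-2-1 lies at chr6:28589379-28589450 (plus strand), over an exon of SCAND3 on the other strand and an exon of the long noncoding RNA ZBED9-AS1. The gene of tRNA-Gln-TTG-3-3 lies at chr6:27795861-27795932 (minus strand), again outside any GENCODE gene. The entries of tRNA-Gln-CTG-1-4, tRNA-Gln-CTG-4-1 and tRNA-Gln-TTG-3-3 stand for 5, 4 and 3 identical genes each, so their reads cannot be placed at 1 locus.

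Only 2 of the 9 glutamine sites were A58 itself, base 57 of tRNA-Gln-CTG-1-4 and base 57 of tRNA-Gln-TTG-3-3. A further 4 lay 1 nt from it, namely base 56 of tRNA-Gln-CTG-1-4, bases 56 and 58 of tRNA-Gln-CTG-5-1 and base 58 of tRNA-Gln-TTG-2-1. The remaining 3 were base 51 of tRNA-Gln-TTG-1-1, which is 6 nt before A58, and base 69 of tRNA-Gln-CTG-4-1 and of tRNA-Gln-TTG-3-3, which is 12 nt past A58 in the acceptor stem. Bases 51, 57 and 69 are adenosines in all 6 glutamine tRNAs, so a site listed for 1 of them has the same base in the others. Base 56 is instead a G in tRNA-Gln-CTG-4-1 and tRNA-Gln-TTG-2-1 (A56G, with tRNA-Gln-CTG-1-4 as the reference), and base 58 is a G in tRNA-Gln-CTG-4-1 (A58G, by linear position and the same reference). The T-loop sequence TTCAAATC, with A58 as the middle of its 3 adjacent adenosines, occurred in 4 of the 6 glutamine tRNAs and in no other tRNA of the table.

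The table itself appears to have been selected on IP mismatches, although its rule is not stated. Each of the 44 sites was mismatched in at least 1 IP library, and at 42 of them the rate in IP exceeded that in dma.IP in 1 or more cultures. The IP mismatch rates below are therefore given as descriptions, since they may have decided which sites entered the table. A thinly read tRNA may likewise be listed only through its IP reads, which bears on each comparison of IP reads with dma.IP or Input. At 7 of the 9 glutamine sites there was exactly 1 mismatched IP read over all libraries, and the remaining sites had 2 and 3.

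Reads were few in the pulldowns. Counting each tRNA once, at its best-covered site, the 29 tRNAs had 39 and 118 IP reads in OE-WT, against 82 and 141 in CTRL. In dma.IP they had 98 and 90 reads in OE-WT, against 33 and 66 in CTRL. In Input they had 26464 and 22300 reads in OE-WT, against 12442 and 24840 in CTRL. These totals cover the listed tRNAs only and are not library depths. Intervals below are 95% intervals of counting error alone and leave out the spread between cultures. The study's methods name no molecular identifiers.

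The glutamine tRNAs held a large share of the IP reads and very little of Input. They had 15 of 39 and 37 of 118 IP reads in OE-WT, or 38.5% and 31.4%, against 30 of 82 and 45 of 141 in CTRL, or 36.6% and 31.9%. In dma.IP they had 14 and 9 reads in OE-WT, or 14.3% and 10%, against 5 and 11 in CTRL, or 15.2% and 16.7%. In Input they had 59 and 57 reads in OE-WT, or 0.223% and 0.256%, against 73 and 67 in CTRL, or 0.587% and 0.270%. The share was thus above 30% in each IP library, at or below 16.7% in each dma.IP library and below 1% in each Input library. The CTRL replicate 1 Input library, the one with the fewest reads, had the highest Input share.

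**Figure D1:**
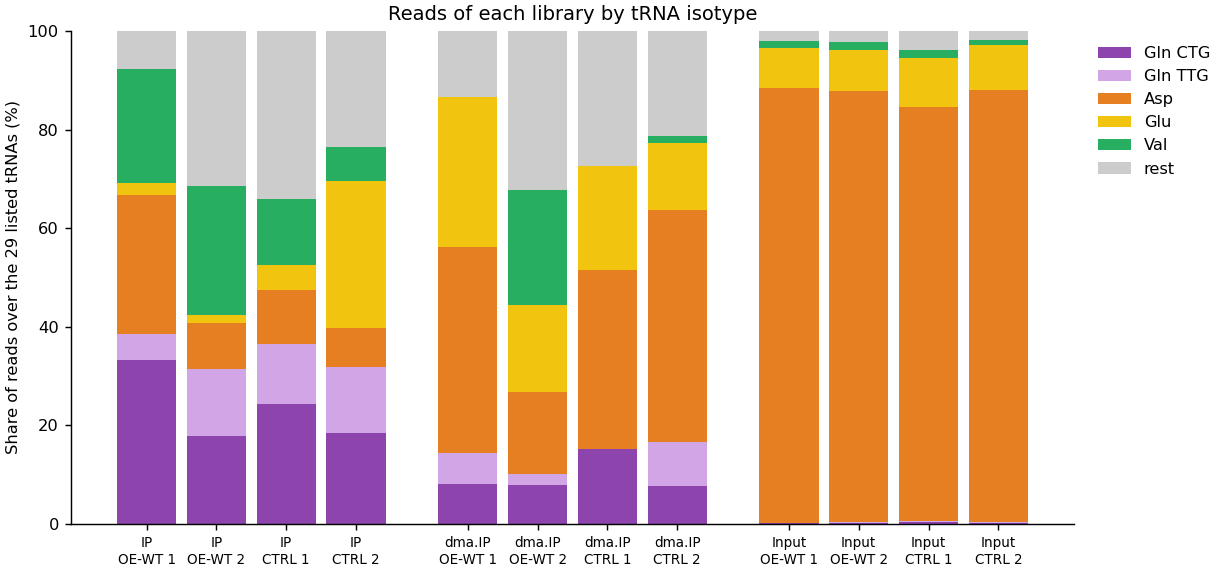
Share of reads over the 29 listed tRNAs (percent, vertical axis) in each of the 12 libraries, grouped by fraction and with OE-WT left of CTRL. Stacked colours mark glutamine CTG, glutamine TTG, Asp, Glu, Val and all other tRNAs. The glutamine segments take 31.4% to 38.5% of each IP library and are barely visible in Input, where Asp takes 84.1% to 88.2%.

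Summed over the 4 cultures, the glutamine tRNAs had 127 of 380 IP reads and 256 of 86046 Input reads, or 33.4% and 0.298%. The ratio of the IP share to the Input share was 173 and 123 in the OE-WT cultures, against 62.4 and 118 in the CTRL cultures, with a geometric mean of 112. This recovery is a description with no test, because the comparison with Input was among the reasons for choosing these tRNAs. Its size rests on the tRNA-Asp reads that fill Input. Asp held 75136 of the 86046 Input reads (87.3%) but 42 of the 380 IP reads (11.1%). Computed among the other tRNAs, without Asp, the geometric mean was 17.0, and without Asp and Glu it was 6.02, a denominator chosen after the data were seen. By the same measure over all 29 tRNAs, the recovery summed over the cultures was 26.0 for tRNA-iMet, 11.6 for Val tRNAs, 1.47 for Glu and 0.127 for Asp. Single tRNAs of other isotypes also had high values, such as 99.1 for tRNA-Tyr-GTA-2-1 (7 IP and 16 Input reads), 55.6 for tRNA-Arg-ACG-2-1 (14 and 57) and 42.2 for tRNA-Val-CAC-3-1 (41 and 220).

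Recovery differed widely among the 6 glutamine tRNAs. CTG tRNAs had 80 IP reads and 105 Input reads in all, and TTG tRNAs had 47 and 151, giving summed recoveries of 173 (127 to 233) for CTG and 70.5 (49.7 to 98.4) for TTG. By culture the CTG value was 368 and 233 in OE-WT, against 94.8 and 143 in CTRL. The TTG value was 38.8 and 75.6 in OE-WT, against 37.0 and 95.6 in CTRL. CTG was higher than TTG in each of the 4 cultures. The anticodons did not separate tRNA by tRNA, however. With reads summed over the cultures, the 4 highest recoveries of the 29 tRNAs were those of tRNA-Gln-CTG-4-1 (28 IP and 8 Input reads), tRNA-Gln-CTG-5-1 (37 and 12), tRNA-Gln-TTG-2-1 (17 and 27) and tRNA-Gln-TTG-3-3 (29 and 57). The order rests on few reads. The listed bases also differ between tRNAs, tRNA-Gln-CTG-4-1 having only base 69 and tRNA-Gln-CTG-1-4 bases 56 and 57. How far the base counted set the order, or the CTG and TTG values, was not tested. The fourth value, 115, lay beside 113 for tRNA-Ile-TAT-2-1 (1 IP and 2 Input reads) and for tRNA-Tyr-GTA-7-1 (2 and 4). By culture, tRNA-Gln-TTG-2-1 had 0 and 126 in OE-WT, against 30.3 and 264 in CTRL, and tRNA-Gln-CTG-4-1 had no value in CTRL replicate 1, where it had no Input read. tRNA-Gln-CTG-1-4 (15 and 85) came at rank 11 and tRNA-Gln-TTG-1-1 (1 and 67) at rank 20. The glutamine CTG figure therefore rested mainly on tRNA-Gln-CTG-4-1 and tRNA-Gln-CTG-5-1, each with at most 12 Input reads in all.

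The 2 tRNAs that differ by 1 base were read unlike each other in IP. tRNA-Gln-TTG-1-1 had 0 and 0 IP reads in OE-WT and 1 and 0 in CTRL, with 18 and 18 Input reads in OE-WT and 17 and 14 in CTRL. It had no dma.IP read in any library. tRNA-Gln-TTG-3-3 had 2 and 10 IP reads in OE-WT and 7 and 10 in CTRL, with 15 and 13 Input reads in OE-WT and 14 and 15 in CTRL. Summed over libraries, tRNA-Gln-TTG-1-1 had 1 IP read and 67 Input reads, and tRNA-Gln-TTG-3-3 had 29 and 57. The counts were taken at different bases, 51 for tRNA-Gln-TTG-1-1 and, for tRNA-Gln-TTG-3-3, base 69 in IP but base 57 in Input, the better covered base of each. Held at base 57 tRNA-Gln-TTG-3-3 had 12 IP and 57 Input reads, and held at base 69 it had 29 and 24, so its recovery moves with the base chosen. How far the position or the assignment of reads between near-identical sequences set this contrast was not tested.

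**Figure D2:**
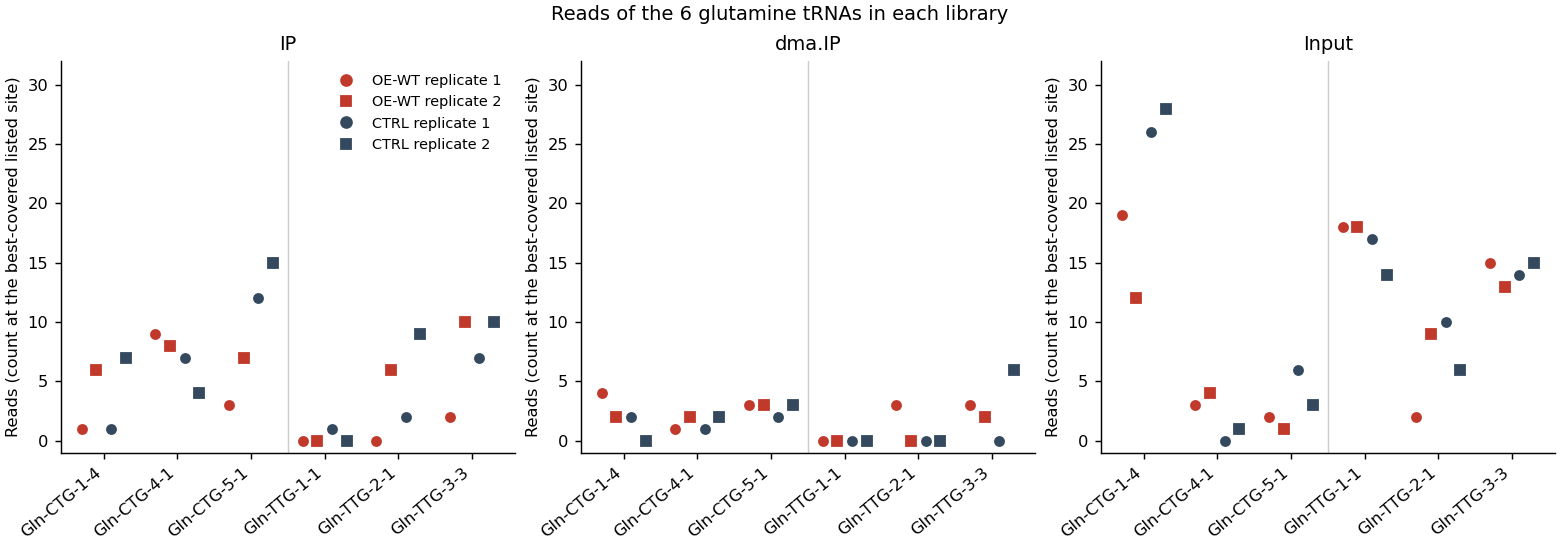
Reads of each glutamine tRNA (count at its best-covered listed site, vertical axis) in IP, dma.IP and Input, with OE-WT libraries in red left of CTRL libraries in dark blue. Circles are replicate 1 and squares replicate 2, and a vertical line divides CTG from TTG tRNAs. tRNA-Gln-TTG-1-1 has 14 to 18 reads in each Input library and at most 1 in IP, whereas tRNA-Gln-CTG-5-1 has up to 15 reads in IP and at most 6 in Input.

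The first question between the conditions was whether the Input level of any glutamine tRNA differed with TRMT6/TRMT61A overexpression. tRNA-Gln-CTG-1-4 had 19 and 12 Input reads in OE-WT, against 26 and 28 in CTRL. As a share of the listed tRNAs this was 0.0628% ± 0.0127 in OE-WT and 0.161% ± 0.0681 in CTRL (SD, n = 2 each). The ratio of its summed shares was 0.439 with an exact interval of 0.273 to 0.695, which leaves out the spread between cultures. For each TTG tRNA the matching interval held 1. The libraries of tRNA-Gln-CTG-1-4 did not overlap, but edgeR's quasi-likelihood test across the 29 tRNAs gave a log2 fold change of −1.31 ± 0.95 (SE) with a Benjamini-Hochberg adjusted p of 0.676. tRNA-Gln-TTG-3-3 had the Input counts given above, and its log2 fold change was −0.54 ± 0.90 (edgeR adjusted p = 0.979). For tRNA-Gln-TTG-1-1 it was −0.33 ± 0.89 and for tRNA-Gln-TTG-2-1, with 2 and 9 reads in OE-WT and 10 and 6 in CTRL, −1.02 ± 1.06, both at an edgeR adjusted p of 0.979. The standard errors were larger than 3 of these 4 log2 changes, so changes of such a size were not detectable at this depth.

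The remaining CTG tRNAs had too few Input reads for a stable fold. tRNA-Gln-CTG-4-1 had 3 and 4 Input reads in OE-WT, against 0 and 1 in CTRL, a ratio of summed shares of 5.35 with an exact interval of 0.688 to 241. tRNA-Gln-CTG-5-1 had 2 and 1 reads in OE-WT, against 6 and 3 in CTRL, a ratio of 0.255 (0.0444 to 1.02). In Input, edgeR called none of the 29 tRNAs (0%), none had an unadjusted p under 0.05, and DESeq2 also called 0. The Input shares of OE-WT and CTRL did not overlap for 4 of the 6 glutamine tRNAs, against 12 of all 29 (41.4%).

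In IP, tRNA-Gln-CTG-5-1, the glutamine tRNA with the most IP reads, had 3 and 7 reads in OE-WT, against 12 and 15 in CTRL. Its share was 6.81% ± 1.24 in OE-WT and 12.6% ± 2.83 in CTRL (SD, n = 2 each), and the libraries did not overlap, which was so for this tRNA alone of the 6 and for 5 of all 29 (17.2%). Its log2 fold change was −0.93 ± 1.00 (edgeR adjusted p = 0.560). tRNA-Gln-CTG-4-1 had 9 and 8 IP reads in OE-WT, against 7 and 4 in CTRL, with a log2 fold change of 1.33 ± 1.09 (edgeR adjusted p = 0.520). The 2 fitted values had opposite signs, and neither passed the threshold.

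tRNA-Gln-CTG-1-4 had 1 and 6 IP reads in OE-WT, against 1 and 7 in CTRL, with a log2 fold change of 0.33 ± 1.30 (edgeR adjusted p = 0.890). tRNA-Gln-TTG-2-1 had 0 and 6 in OE-WT, against 2 and 9 in CTRL, with −0.44 ± 1.27 (edgeR adjusted p = 0.890). For tRNA-Gln-TTG-3-3 the value was −0.10 ± 1.05 (edgeR adjusted p = 0.927). Replicate 2 had more IP reads than replicate 1 for each of these 3 tRNAs in both conditions, as it had over all the listed tRNAs. No glutamine tRNA was called, against 1 of 29 tRNAs in IP (3.45%), tRNA-Glu-TTC-2-1, whose log2 fold change was −3.74 ± 1.12 (edgeR adjusted p = 0.0289). That call was lost when replicate 2 of OE-WT or of CTRL was left out, leaving 0 called.

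The change in IP beyond the change in Input was tested as an interaction in the same fit. No tRNA was called (0%, and 0 by DESeq2), 2 of 29 had an unadjusted p under 0.05, and no glutamine tRNA was among them (lowest adjusted p of 0.718 among the 6, edgeR). As a group the glutamine tRNAs took 34.9% ± 5.02 of IP reads in OE-WT and 34.3% ± 3.30 in CTRL (SD, n = 2 each).

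The dma.IP libraries held 39 glutamine reads in all. tRNA-Gln-CTG-5-1 had 3 and 3 reads in OE-WT, against 2 and 3 in CTRL. tRNA-Gln-CTG-1-4 had 4 and 2 reads in OE-WT, against 2 and 0 in CTRL. tRNA-Gln-CTG-4-1 had 1 and 2 reads in both OE-WT and CTRL. No CTG tRNA exceeded 4 reads in a dma.IP library. tRNA-Gln-TTG-3-3 had 3 and 2 reads in OE-WT, against 0 and 6 in CTRL, and tRNA-Gln-TTG-2-1 had 3 and 0 in OE-WT and no read in CTRL. Between the conditions edgeR called no tRNA in dma.IP (0%), with 3 of 29 at an unadjusted p under 0.05, none of them a glutamine tRNA, while DESeq2 called 1 tRNA of another isotype. The dma.IP shares did not overlap for 2 of the 6 glutamine tRNAs, against 9 of all 29 (31.0%).

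Set against IP, dma.IP held a smaller share of glutamine reads in each of the 4 cultures. Every listed site had a mismatched IP read, so a thinly read tRNA may be listed only through its IP reads. No such need is seen for dma.IP, where tRNA-Gln-TTG-1-1 had no read. How far this listing bears on the smaller share was not tested, and the values below are given as a description. Fitted over both conditions, the log2 change of dma.IP over IP was −1.94 ± 0.95 for tRNA-Gln-CTG-4-1 (edgeR adjusted p = 0.185). It was −1.16 ± 0.80 for tRNA-Gln-CTG-5-1 (edgeR adjusted p = 0.395). For tRNA-Gln-TTG-3-3 it was −0.97 ± 0.83 (edgeR adjusted p = 0.480), and for tRNA-Gln-CTG-1-4 −0.51 ± 1.07 (edgeR adjusted p = 0.962). No glutamine tRNA passed the threshold, and 2 of the 6, tRNA-Gln-CTG-4-1 and tRNA-Gln-TTG-2-1, had an unadjusted p under 0.05, against 7 of 29. The 3 tRNAs called in this comparison (10.3%) were 2 Asp tRNAs (tRNA-Asp-GTC-2-5 and tRNA-Asp-GTC-3-1) and tRNA-Glu-TTC-4-1, all higher in dma.IP. Shares of a library add up to a whole, so how far these 3 set the lower glutamine share cannot be told apart from a change in glutamine tRNAs.

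Where a tRNA had 2 listed sites, the reads over them could be compared within a library. In IP, tRNA-Gln-TTG-3-3 had 0 and 3 reads over A58 (base 57) in OE-WT and 4 and 5 in CTRL, against 2 and 10 reads over base 69 in OE-WT and 7 and 10 in CTRL. In Input it had 15 and 13 reads over A58 in OE-WT and 14 and 15 in CTRL, against 9 and 6 over base 69 in OE-WT and 5 and 4 in CTRL. Base 69 was thus read more often than A58 in all 4 IP libraries, and A58 more often than base 69 in all 4 Input libraries. Summed, the ratio of reads at A58 to reads at base 69 was 0.414 in IP (12 to 29), 0.545 in dma.IP (6 to 11) and 2.38 in Input (57 to 24). The pattern is given as a description, since it was chosen after the values were seen.

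**Figure D3:**
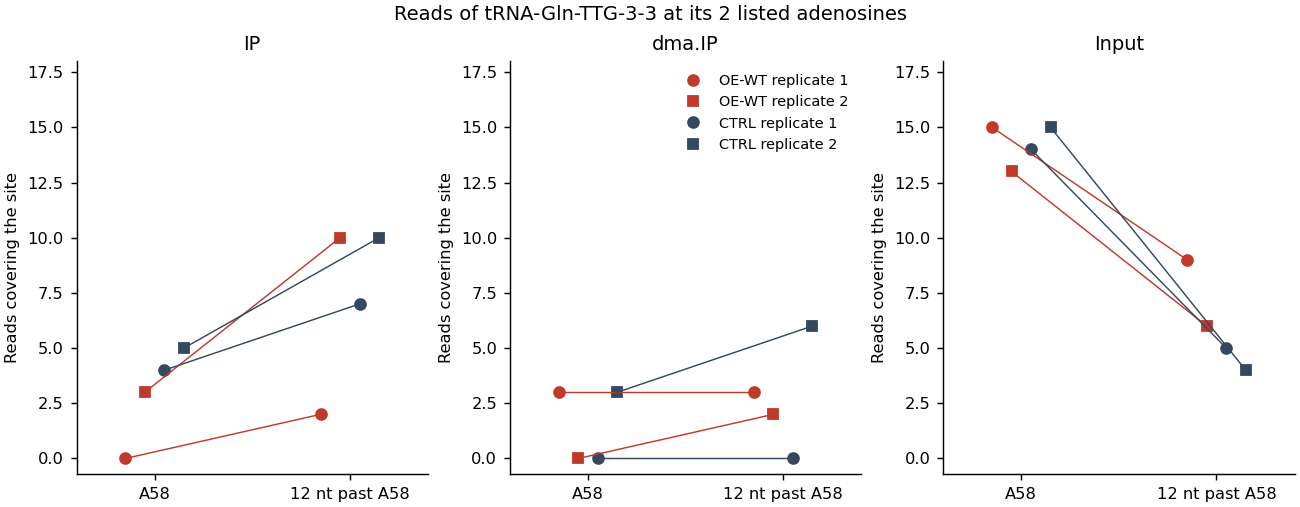
Reads covering A58 and the adenosine 12 nt past it in tRNA-Gln-TTG-3-3 (count, vertical axis) in IP, dma.IP and Input, with lines joining the sites of a library, OE-WT in red and CTRL in dark blue. The lines run up in all 4 IP libraries and down in all 4 Input libraries.

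tRNA-Gln-CTG-5-1 had sites on both sides of A58. Its IP reads at base 56 numbered 0 and 4 in OE-WT and 2 and 15 in CTRL, against 3 and 7 at base 58 in OE-WT and 12 and 15 in CTRL. In 3 of the 4 IP libraries fewer reads covered base 56, the base before A58, than base 58, the base after it, and 1 library was equal. In Input the sums were 9 reads at base 56 and 12 at base 58, too few to set against the 21 and 37 of IP. In tRNA-Gln-CTG-1-4 bases 56 and 57 are neighbours, and the same number of reads covered both in each IP library.

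The mismatch rates in Input were not used in choosing the members, although the rule by which the table was made is not stated. At A58 of tRNA-Gln-CTG-1-4, mismatched reads were 0 of 19 and 2 of 12 in OE-WT, against 3 of 26 and 5 of 27 in CTRL. Its neighbour at base 56, covered by nearly the same reads, had 0 of 19 and 0 of 12 in OE-WT, against 0 of 26 and 0 of 28 in CTRL. At A58 of tRNA-Gln-TTG-3-3, mismatched reads were 2 of 15 and 2 of 13 in OE-WT, against 2 of 14 and 2 of 15 in CTRL. Mismatches at A58 were thus found in 7 of the 8 combinations of tRNA and library, all but OE-WT replicate 1 of tRNA-Gln-CTG-1-4. Summed over libraries the rate was 11.9% (5.86 to 20.8) for tRNA-Gln-CTG-1-4 and 14.0% (6.26 to 25.8) for tRNA-Gln-TTG-3-3. At base 56 of tRNA-Gln-CTG-1-4 it was 0 of 85, which allows a rate of up to 3.53%.

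The other sites 1 nt from A58 were thinly read in Input. Base 58 of tRNA-Gln-CTG-5-1 had 1 mismatched read of 3 in OE-WT and 0 of 9 in CTRL, and base 56 had 0 of 3 in OE-WT and 1 of 6 in CTRL. Base 58 of tRNA-Gln-TTG-2-1 had 0 of 11 in OE-WT and 0 of 16 in CTRL. Away from A58, base 51 of tRNA-Gln-TTG-1-1 had 0 of 36 in OE-WT and 0 of 31 in CTRL, which together allow up to 4.48%. Base 69 of tRNA-Gln-TTG-3-3 had 2 of 15 in OE-WT and 0 of 9 in CTRL, and base 69 of tRNA-Gln-CTG-4-1 had 0 of 7 in OE-WT and 0 of 1 in CTRL. Input mismatches were therefore absent from 4 of the 9 sites, 3 of which had 27 or more reads.

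Taken by position, A58 sites had 18 mismatched of 141 Input reads (12.8%, 7.74 to 19.4) and the sites 1 nt away had 2 of 133 (1.5%, 0.183 to 5.33). The difference was 11.3 percentage points with a Newcombe interval of 5.34 to 17.9 over the summed reads. By library, A58 had 5.88% and 16% in OE-WT and 12.5% and 16.7% in CTRL, against 4% and 0% at the adjacent sites in OE-WT and 0% and 2.56% in CTRL. A58 was higher in 4 of 4 libraries, by 11.1 points on average (SD 6.32), and the two-sided exact sign-flip permutation test gave p = 0.13, the smallest that 4 libraries allow. Within tRNA-Gln-CTG-1-4 alone, a comparison added after the data were seen, the difference was 11.9 points (5.06 to 20.5) on summed reads and positive in 3 of 4 libraries, with OE-WT replicate 1 at 0 on both sides. The mean over libraries depended on weighting. With each site given equal weight it was 6.63 points (exact sign-flip permutation p = 0.375, two-sided, positive in 3 of 4 libraries), since single mismatched reads at the 2 sites of tRNA-Gln-CTG-5-1 then count for more.

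**Figure D4:**
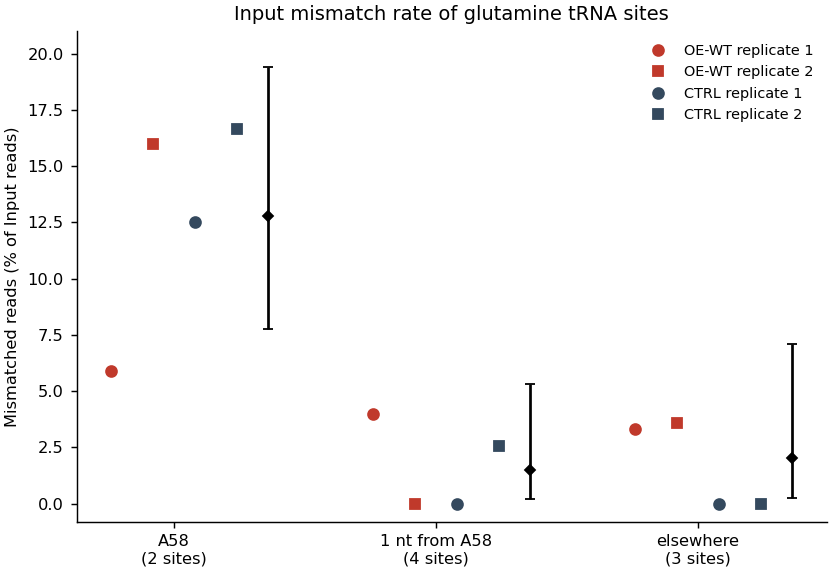
Mismatched reads as a percent of Input reads (vertical axis) at the 2 glutamine A58 sites, the 4 sites 1 nt from A58 and the 3 sites elsewhere. Red and dark blue points are the OE-WT and CTRL libraries, and black diamonds are the rates over summed reads with 95% Clopper-Pearson intervals. The summed rate is 12.8% at A58, 1.5% next to it and 2.02% elsewhere.

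For comparison, the 6 listed A58 sites of other tRNAs had Input rates from 2.60% (tRNA-Asp-GTC-3-1) to 23.4% (tRNA-Gly-GCC-2-1), a range that holds both glutamine sites, and 3.38% over their summed reads (954 of 28200), most of which were reads of tRNA-Asp-GTC-3-1. A58 of tRNA-iMet-CAT-1-1 had 13.3% (33 of 249 reads). Summed over the 5 listed sites 1 nt from A58 in other tRNAs the rate was 1.70% (18 of 1059). Of those 18 mismatched reads 10 lay at base 56 of tRNA-Ala-TGC-4-1, where the rate was 9.52% (10 of 105), above 4 of the 6 A58 sites of other tRNAs.

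The difference between the anticodons in Input depended on which sites were counted. Over all sites, CTG sites had 12 mismatched of 198 reads (6.06%) and TTG sites 10 of 175 (5.71%), a difference of 0.346 points with an interval of −4.82 to 5.30. By library CTG had 2.22% and 6.67% in OE-WT and 4.84% and 9.84% in CTRL, against 6.82% and 6.52% for TTG in OE-WT and 4.35% and 5.13% in CTRL. CTG was higher in 3 of 4 libraries and the mean difference was 0.187 points (SD 3.80, exact sign-flip permutation p = 0.625, two-sided). Its direction turned when CTRL replicate 2 was left out, at −1.32 points. With only the best-read site of each tRNA, CTG had 1 mismatched of 105 reads and TTG 8 of 151, and the mean difference was −4.28 points (SD 1.86), with CTG lower in 4 of 4 libraries (exact sign-flip permutation p = 0.13, two-sided, the smallest that 4 libraries allow). Restricted to the A58 sites, another comparison added after the data were seen, CTG minus TTG was −2.13 points (−14.6 to 8.83) over summed reads and positive in 2 of 4 libraries. With so few reads, differences up to the ends of these intervals remain compatible with the counts, and the sets also differ in which positions they hold.

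Between conditions, no Input mismatch rate of a glutamine site could be tested at the minimum of 20 reads in every library, and none of the 23 other sites that met it was called (quasi-binomial model, 0%, with 0 at an unadjusted p under 0.05). With Input reads summed per condition, a Fisher's exact test called 1 of 43 sites, not a glutamine site. At a minimum of 10 reads, A58 of tRNA-Gln-CTG-1-4 differed by −6.70 points, OE-WT minus CTRL (adjusted p = 0.878 in the quasi-binomial fit across sites), and A58 of tRNA-Gln-TTG-3-3 by 0.549 points (adjusted p = 0.984). Over summed reads the 2 A58 sites had 6 of 59 mismatched in OE-WT and 12 of 82 in CTRL, a difference of −4.46 points with an interval of −15.2 to 7.48. Over all 9 sites the counts were 9 of 165 in OE-WT and 13 of 208 in CTRL, a difference of −0.795 points (−5.67 to 4.46). No change in either direction was resolved from the Input reads.

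The IP mismatches, on which the sites may have been chosen, came to 12 of 175 reads. They were 0 of 16 and 6 of 50 in OE-WT, against 3 of 37 and 3 of 72 in CTRL, so all 6 OE-WT mismatches came from replicate 2. At A58 of tRNA-Gln-TTG-3-3 there were no reads and 1 of 3 mismatched in OE-WT, against 1 of 4 and 1 of 5 in CTRL. This was the one glutamine site mismatched in both CTRL libraries, and none was mismatched in both OE-WT libraries. At A58 of tRNA-Gln-CTG-1-4 there were 0 of 1 and 1 of 6 in OE-WT, against 0 of 1 and 0 of 7 in CTRL, and base 56 of the same tRNA had the same counts. Base 51 of tRNA-Gln-TTG-1-1 was covered by a single IP read, in CTRL replicate 1, which was mismatched.

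Outside A58 the IP mismatches were single reads spread over both conditions. Base 69 of tRNA-Gln-TTG-3-3 had 1 of 12 in OE-WT and 0 of 17 in CTRL, and base 69 of tRNA-Gln-CTG-4-1 had 1 of 17 in OE-WT and 0 of 11 in CTRL. Base 58 of tRNA-Gln-TTG-2-1 had 1 of 6 in OE-WT and 1 of 11 in CTRL. For tRNA-Gln-CTG-5-1, base 58 had 0 of 10 in OE-WT and 1 of 27 in CTRL, and base 56 had 0 of 4 in OE-WT and 1 of 17 in CTRL. Of the 9 sites, 6 had an IP mismatch in OE-WT and 5 in CTRL.

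Two-sided Fisher's exact tests on summed IP reads were run at the 8 glutamine sites with reads in both conditions, but 6 of these had a single mismatched read in all, which cannot reach the threshold at such depths, so the tests say nothing about a difference there. No site of the 31 tested in the table was called (0%), and no unadjusted p was under 0.05. These results are a description too, since the same mismatches may have decided which sites were listed. Summed over the 9 sites, the IP rate was 9.09% in OE-WT (6 of 66) and 5.50% in CTRL (6 of 109), a difference of 3.59 points with an interval of −4.12 to 13.4. These tests add up reads of 2 cultures and leave out the spread between cultures.

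In dma.IP, mismatches were seen at a single glutamine site. Base 69 of tRNA-Gln-TTG-3-3 had 0 of 5 in OE-WT and 2 of 6 in CTRL, both from CTRL replicate 2. The 2 A58 sites had 0 of 9 in OE-WT and 0 of 5 in CTRL, which together allow a rate of up to 21.4%. The A58 rate was 4 of 27 in IP (14.8%, 4.19 to 33.7) and 18 of 141 in Input (12.8%). So few dma.IP reads covered A58 that a rate as high as that of IP or Input would still fall under the limit. Of the 7 glutamine sites with dma.IP reads in both conditions, 6 had no mismatched read at all, so Fisher's exact test could show no difference at them. None of the 23 sites tested in the table was called (0%).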

How the data were processed

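The glutamine members, lists and comparisons were chosen with earlier results of these data known. Small RNA was de-aminoacylated and sequenced, and per the study's methods reads were filtered at a quality threshold, trimmed (Cutadapt 1.9.3) and mapped by Bowtie2 onto tRNA sequences with CCA appended, identical isoforms being merged. How mismatches were called, how sites were listed and when the demethylase acted are not given in the sources used here. The authors deposited 2 counts per library at every site, covering reads and mismatched reads, neither normalized. The deposited mismatch rate is a fraction, mismatched over covering reads, and was recomputed from the counts. The authors also deposited rate differences and ratios per culture, which were not used.

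Each tRNA was counted at its best-covered site. Reads were tested with edgeR 4.0.16 (quasi-likelihood, 12 libraries in 1 fit, DESeq2 1.42.0 as an alternative). Library size in edgeR was the total over the listed tRNAs, with no further scaling factor, and TMMwsp factors were an alternative. Input rates were tested with a quasi-binomial model (at least 20 reads in every library), and summed IP and dma.IP reads with Fisher's exact test. Adjustment was over all tRNAs or sites, at a threshold of 0.05. The Input contrasts within the family used exact sign-flip permutation tests over the 4 libraries. Shares have Clopper-Pearson intervals, differences Newcombe intervals, and a share of 0 the limit that 3 counts would make. Scripts were tested on simulated data. All 9 glutamine sites were named. Genes came from RefSeq and GENCODE 44 (hg38). The cultures are duplicates and no batch is labelled, so p-values other than Fisher's measure the spread between these libraries only. Fisher's exact test on summed reads measures counting error alone, and edgeR estimated the spread over all 12 libraries. Same-numbered OE-WT and CTRL libraries deviated together with r = 0.188 in Input, 0.142 in IP and 0.0018 in dma.IP, so the main fits did not take the numbers as pairs. For fractions of a culture, r was −0.0406 in OE-WT and 0.0974 in CTRL between IP and Input. Between dma.IP and IP it was −0.447 in OE-WT and −0.132 in CTRL. The main fits left culture out, whereas values given by culture join fractions by replicate number. Computations used R 4.3.3, Python 3.11.15, SciPy 1.17.1 and matplotlib 3.10.9.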

Additional observations from a re-analysis of the deposited data

How the results depend on the processing

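No glutamine tRNA or site was called in any of 70 combinations of comparison and setting (420 tests). Most mismatch tests in IP and dma.IP could not have passed at these depths. A simulation (50 runs) raised all 6 glutamine tRNAs together in OE-WT. At 4-fold, read tests between conditions called 1% of glutamine tRNAs for IP, 1.67% for dma.IP and 30.3% for Input. At 16-fold these values were 18%, 22.7% and 99%, while 21.8% of other tRNAs were also called for IP. Library size included the raised tRNAs, so their share rose by less than the set fold and the other shares fell. This gap was largest in IP and smallest in Input, where glutamine held 33.4% and 0.298% of the real reads. The values therefore do not compare the fractions, and they hold for a joint change of the glutamine tRNAs, not for a change in 1 tRNA. The missing read calls in the pulldowns therefore do not show that glutamine tRNAs stayed unchanged. Counts of called tRNAs moved only outside the family. For OE-WT over CTRL in IP the count was 0 instead of 1 with TMMwsp factors, with DESeq2, with the mean over sites, with the IP libraries fitted alone and with the replicate block, and ranged from 0 to 1 when a culture was left out. For dma.IP over IP it was 1 instead of 3 with DESeq2 and ranged from 1 to 2 with a culture left out, OE-WT replicate 1 giving 2 and each other culture 1. It was 1 with crossed replicate numbers, chosen after the data were seen. For OE-WT over CTRL in dma.IP, DESeq2 called 1 tRNA, and Fisher's exact test called 1 of 43 sites in Input, against 0. The replicate block left the other counts at 0 or 3, and the main fits did not take replicate numbers as pairs. The IP share of the glutamine tRNAs over their Input share, 112, became 17.0 without Asp, 188 summed over all sites and 6.02 without Asp and Glu. The CTG minus TTG difference in Input reversed to −4.28 points with 1 site per tRNA (CTG lower in 4 of 4 libraries) and −2.40 with A58 sites only, and ranged from −1.32 to 1.78 with a library left out. A58 minus adjacent positions stayed positive, from 9.49 to 14.2 points, when a library was left out. Fitted log2 changes near 0 also turned: tRNA-Gln-TTG-1-1 in Input to 0.28 with DESeq2, and tRNA-Gln-CTG-1-4 in dma.IP over IP to 0.42 with TMMwsp factors. Further dma.IP over IP values shrank with TMMwsp factors. They went from −0.97 to −0.05 for tRNA-Gln-TTG-3-3, from −1.16 to −0.34 for tRNA-Gln-CTG-5-1 and from −1.94 to −1.17 for tRNA-Gln-CTG-4-1. With DESeq2 the same tRNAs had −0.99, −1.27 and −2.08. With a culture left out, log2 ranges that crossed 0 were −0.86 to 0.39 for tRNA-Gln-TTG-1-1 in Input, −0.59 to 0.13 for tRNA-Gln-TTG-3-3, −11.38 to 0.51 for tRNA-Gln-TTG-2-1 and −0.40 to 1.80 for tRNA-Gln-CTG-1-4 in IP, and −6.04 to 0.95 for tRNA-Gln-CTG-1-4 in dma.IP over IP. The −11.38 and −6.04 come from settings that leave an arm with 0 reads of the tRNA, and are no measure of size. The cause of these moves was not tested, except that leaving out Asp and Glu shrinks the Input denominator by construction. Pulldown depth, 0 to 15 reads per glutamine tRNA and library, limits each IP and dma.IP value.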
